A study of Arabidopsis thaliana with 54 samples.

Results

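Ethylene and canopy shade are both signals by which a seedling senses neighbours, and here they were set against each other in the cotyledon at night. The comparison holds 6 of the 54 arrays of the study: 3 from cotyledons of shaded seedlings and 3 from cotyledons of ethylene-treated seedlings, all harvested 13.5 h after the start of treatment and chosen by their labels alone. The seedlings were Arabidopsis thaliana Col-0, 1 day old at the start, grown in short days of 9 h light and 15 h dark and treated in closed glass desiccators. Control light had a photosynthetically active radiation of 140 µmol per square metre and second, 29 of blue light and a red to far-red ratio of 2.1. Ethylene-treated seedlings stood in that light with 1 µl of ethylene per litre, and shade was a green filter that left 40 of total light, 3 of blue light and a ratio of 0.45. The 2 groups therefore differed in light as well as in gas. The 13.5 h harvest fell in the dark period, with dissection under a dim green safelight, so no array of this comparison was taken in shade or control light itself. The sample called cotyledon is the cotyledon with the shoot apical meristem; the roots were discarded. Each group has 3 replicates from 3 replicate experiments per the labels, which do not say which number is which experiment, and each replicate pools RNA from 2 plates of 25 seedlings. The study also holds untreated controls, hypocotyls and harvests at 1.5 h and 25.5 h, used below only beside these 6 arrays.

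Ethylene binds receptors in the endoplasmic reticulum, which releases the transcription factor EIN3 and its relatives to switch on their target genes. Shade lowers the red to far-red ratio and the blue light, which inactivates phytochromes and cryptochromes and frees the PIF transcription factors. In young seedlings both signals are known for promoting hypocotyl growth, whereas the cotyledon is the organ that makes sugars and much of the auxin. In bulk tissue, fewer cells of a type and less RNA per cell cannot be told apart, which holds for every level below.

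Levels are deposited log2 values on the RMA scale, so a difference of 1 is a change of 2-fold. A gene was called where its limma moderated test, fitted over all 54 arrays and adjusted by Benjamini-Hochberg over 17504 features that carry a gene, gave an adjusted p below 0.05. All adjusted p-values below come from that limma fit, and differences are shade minus ethylene with their standard errors. Those errors rest on the spread within groups pooled over all 54 arrays. Counts run over the 16746 features with exactly 1 gene. Features of different genes have different probes, so levels are compared only within a gene. Arrays of the same group correlated at 0.981 to 0.992, and no 2 arrays were identical.

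The arrays were those of a shoot organ. SPCH, the factor that starts the stomatal lineage, stood between 8.33 and 9.15 in the 6 arrays, against 5.09 and 5.39 in the shaded and ethylene-treated hypocotyls. FMA, which acts at the end of that lineage, stood between 6.82 and 7.26, against 4.28 and 3.95 in hypocotyls. RCA, the Rubisco activase, averaged 11.97 in shade and 11.90 under ethylene, against 11.29 and 11.33 in hypocotyls. It was 1 of 4 photosynthetic markers measured. LHCB4.1 and PSAE-1 stood in shade at 9.99 to 10.11 and 11.29 to 11.52, against 9.64 and 10.93 in shaded hypocotyls. PRK, of carbon fixation, was at 10.17, 9.98 and 9.13 in shade, against 9.22 in shaded hypocotyls. Shade replicate 3 thus lay below shaded hypocotyls for PRK. The meristem markers CLV3, LOB and LAS were low, between 1.8 and 3.23, so the meristem part of the sample left little signal on those features.

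Shade replicate 3 stood apart from the other 2 shade arrays. It correlated with them at 0.981 and 0.982, while those 2 correlated at 0.992. In it, 58 genes lay at least 1 above all 8 other cotyledon arrays of 13.5 h and 34 lay at least 1 below. The other arrays had 1 to 30 such genes above and 0 to 2 below. The 30 were in ethylene replicate 3, which is also among the 6 compared arrays. GH9B15, an endoglucanase gene, was at 9.70 in shade replicate 3 and at 2.27 and 1.86 in the other shade arrays. Of 5 measured root markers, BGLU21 and BGLU22 were at 5.14 and 5.63 there, against 2.3 to 2.37 and 1.92 to 2.29. EXPA18 was at 3.49 against 2.66 and 2.24, and EXPA7 at 3.65 against 3.23 and 3.25. PYK10 was not higher, at 12.70 against 12.755 and 12.757. Control hypocotyls of 13.5 h also gave signal for these genes, averaging 6.88 for BGLU21 and 6.64 for BGLU22. The source of that signal was not tested. The 100 genes richest in hypocotyls over cotyledons averaged 4.46 in shade replicate 3, against 3.87 and 3.89 in the other 2 shade arrays. Their part in the results was not tested. The main counts, the response lists and some single genes are therefore given with and without shade replicate 3. The remaining results, such as the genes shared with other comparisons, use all arrays.

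Another shift touched every array numbered 3 that had no ethylene at 13.5 h. A list of 30 genes was made as ethylene-raised from the cotyledon arrays of 1.5 h and 25.5 h alone, taking those with the largest rise over control at both harvests. Their mean level at 13.5 h was 6.15, 6.20 and 6.24 in the ethylene-treated cotyledons. In shaded cotyledons it was 4.16, 4.15 and 5.36, and in control cotyledons 4.25, 4.21 and 5.14. Hypocotyls likewise had replicate 3 highest, with 3.99, 4.17 and 5.23 in shade and 4.50, 4.38 and 5.42 in control. The arrays numbered 3 therefore lay part of the way towards ethylene without reaching it, in all 4 groups without the gas.

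**Figure D1:**
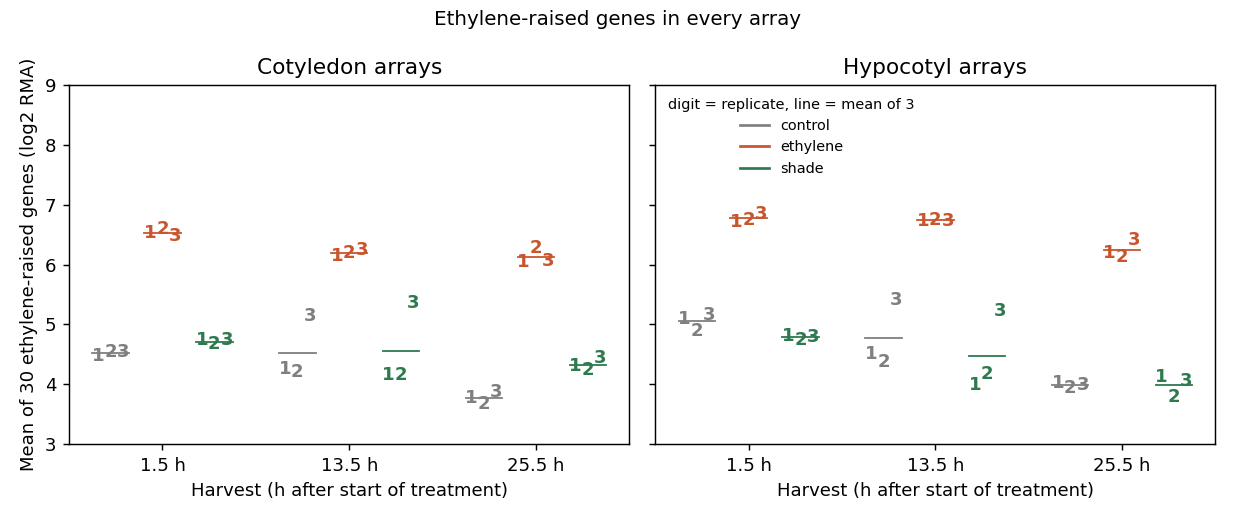
Mean log2 level of the 30 ethylene-raised genes in each of the 54 arrays, by organ, harvest and treatment. Digits are replicates and lines are means of 3. At 13.5 h the digit 3 of the control and shade groups sits at 5.14 to 5.42, above digits 1 and 2 and below every ethylene array.

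At 13.5 h, 798 genes differed between shaded and ethylene-treated cotyledons, which is 4.77% of those tested. Of these, 477 were higher in shade (2.85%) and 321 were lower (1.92%), and 140 (0.836%) and 120 (0.717%) of them differed at least 2-fold. The largest excess in shade fell on 2 expansins and 10 genes known here by locus number only, and the largest deficit on 3 anthocyanin genes and 9 known by locus number only. Without shade replicate 3 the count was 788 (4.71%), with 523 higher (3.12%) and 265 lower (1.58%), and 621 genes (3.71%) were called in the same direction both ways. Over all 16746 genes, 2527 had an unadjusted p below 0.05 (15.1%), and the shade arrays lay all above the ethylene arrays in 9.46% and all below in 9.32%. The median difference of all genes was 0.01, and 51 called genes (0.305%) had overlapping groups. Beside control cotyledons, which both comparisons share, 749 genes were called for shade (4.47%) and 271 for ethylene (1.62%). The shade count was 606 without shade replicate 3. Without the 4 control and shade arrays numbered 3 at 13.5 h, described above, the counts were 542 for shade and 384 for ethylene. Centring the arrays on 3 reference genes set the median of shade minus ethylene at -0.17. It turned the split of that comparison to 209 higher and 807 lower, 1016 in all. One of those 3 reference genes was itself called higher in shade.

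Of the 12 largest excesses in shade, the 2 with a gene symbol were expansins. Expansins loosen the wall so that cells can enlarge, and XTH enzymes cut and rejoin xyloglucan. Of 32 measured expansin and XTH genes, 3 were higher in shade and 1 was lower, beside 2.85% and 1.92% of all genes. Their median difference was 0.07. EXPA8, an alpha-expansin, was at 7.99, 8.41 and 7.19 in shade and at 4.68, 5.53 and 4.85 under ethylene. The groups lay apart, with shade replicate 3 lowest of its group and still above every ethylene array. The difference was 2.84 ± 0.24 (7.18-fold, adjusted p = 3.09e-11), and 3.18 without shade replicate 3. Control cotyledons lay between them at 6.59, 6.72 and 6.54.

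EXPB1, a beta-expansin, was at 6.34, 6.15 and 6.21 in shade and at 2.86, 3.22 and 4.73 under ethylene. The shade arrays were tight and the ethylene arrays spread, without overlap. The difference was 2.63 ± 0.30 (6.19-fold, adjusted p = 6.99e-08), and control was at 4.00, 4.66 and 4.96. Both expansins were far higher in the harvests taken 12 h earlier and later: EXPA8 averaged 10.7 ± 0.05 in shade and 9.72 ± 0.35 under ethylene at 1.5 h (SD, n = 3), and EXPB1 9.06 ± 0.12 and 8.49 ± 0.13. EXPA20 was higher in shade by a smaller 0.79 ± 0.16, with shade at 6.27 to 6.56 and ethylene at 5.56 to 5.81. XTH33 was lower in shade by 0.71 ± 0.21 (adjusted p = 0.0326), and without shade replicate 3 its adjusted p was 0.0615. EXLA2, an expansin-like gene, had shade at 5.56, 5.38 and 4.39 and ethylene at 4.22, 4.39 and 3.39 and was not called (1.11 ± 0.35, adjusted p = 0.0616), but was without shade replicate 3 (1.47, adjusted p = 0.0131).

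Endoglucanases of the GH9 family, which cut beta-glucan chains of the wall, went in both directions. This family and those of the next paragraph were picked after their values had been seen. Of 19 GH9 genes, 3 were higher in shade and 2 lower, beside 2.85% and 1.92% of all genes. GH9B8 was at 5.58, 5.76 and 5.23 in shade and at 3.75, 4.15 and 4.08 under ethylene, near the control values of 3.95, 3.97 and 4.17. The difference was 1.54 ± 0.26 (adjusted p = 9.86e-05). GH9B13 ran the other way, at 7.18, 6.90 and 7.68 in shade and 9.14, 9.28 and 9.06 under ethylene, with control at 6.70, 7.06 and 6.83. Its difference was -1.90 ± 0.32 (adjusted p = 0.00011). GH9B8 thus stood apart from control in shade and GH9B13 stood apart from control under ethylene. GH9B12 was also lower in shade (-1.27 ± 0.34), while GH9B7 and GH9B18 were higher by 0.40 and 0.81 and were not called without shade replicate 3. GH9B15, high in 1 array as given above, was not called.

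Further families of wall and cytoskeleton moved in part. TRICHOME BIREFRINGENCE-LIKE proteins acetylate wall polysaccharides, and 4 of 24 were higher in shade and none lower. Of all genes, 2.85% were higher and 1.92% lower. TBL45 was at 9.93, 10.01 and 9.46 in shade and 8.84, 8.98 and 8.76 under ethylene (0.94 ± 0.13, adjusted p = 3.36e-06). TBL26 and AT2G31110, annotated as TBL40, were higher by 0.85 and 0.98, and TBL38 by 0.75, which was lost without shade replicate 3 (adjusted p = 0.218). Among 17 IQ-domain proteins, which bind calmodulin, IQD18 was higher in shade by 1.25 ± 0.23 and IQD19 by 1.00 ± 0.19, and IQD22 was lower by 0.80 ± 0.19. Of 16 TON1 RECRUITING MOTIF proteins, which take part in microtubule organisation, TRM24 was higher by 1.18 ± 0.22 and TRM28 and TRM19 were lower by 1.05 ± 0.16 and 0.60 ± 0.12.

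**Figure D2:**
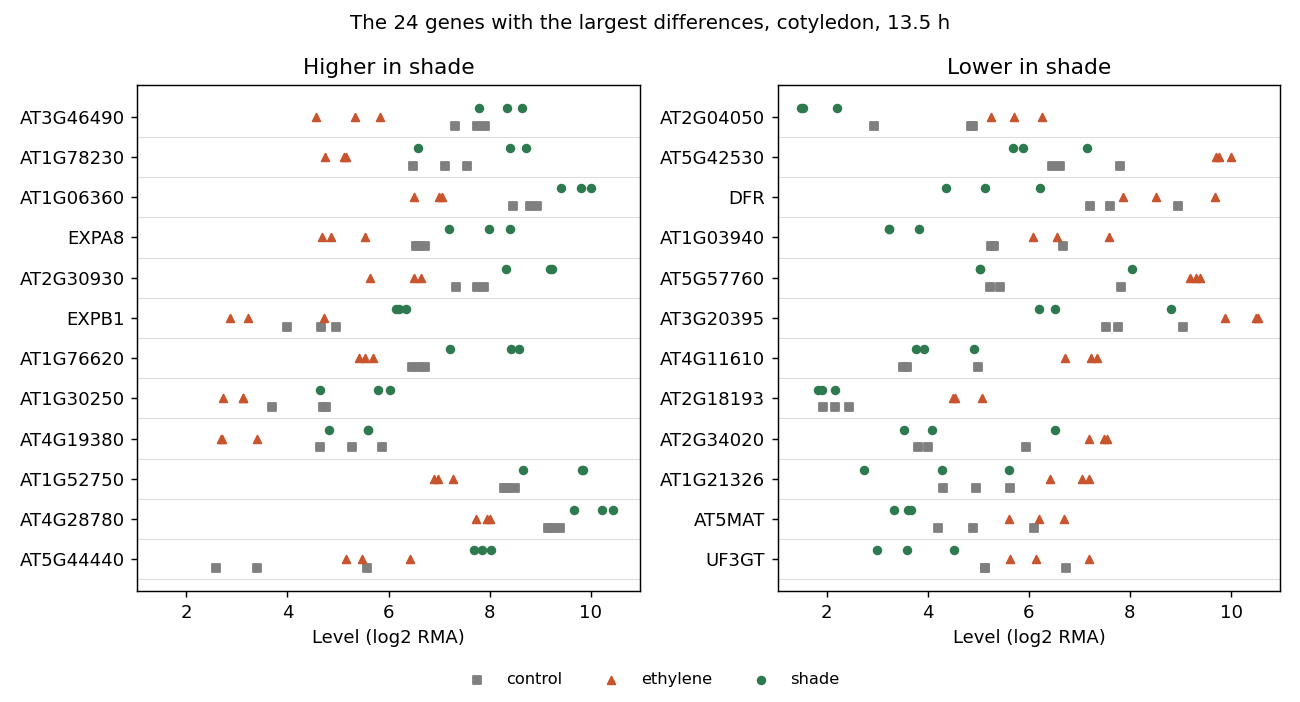
Log2 level in each array of the 24 called genes with the largest differences between shade (circles) and ethylene (triangles) in cotyledons at 13.5 h, with control cotyledons (squares). Shade and ethylene points do not overlap for any of the 24, as the choice of these genes required.

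DFR, UF3GT and AT5MAT, 3 genes of anthocyanin synthesis, were lower in shade. Anthocyanins are the red pigments of the flavonoid pathway, and DFR, dihydroflavonol reductase, makes their precursors. Of 6 measured genes of the flavonoid list, 2 were lower in shade and none higher, beside 1.92% and 2.85% of all genes. Their median difference was -0.19. DFR was at 4.37, 5.14 and 6.22 in shade and 7.87, 8.52 and 9.69 under ethylene. In both groups replicate 3 was highest, and the groups did not overlap. The difference was -3.45 ± 0.68 (10.9-fold lower in shade, adjusted p = 0.000763), and -3.94 without shade replicate 3. Control was at 7.21, 7.61 and 8.94, above every shade array.

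UF3GT, which adds a xylose to anthocyanins, was at 3.58, 3.00 and 4.52 in shade and 5.64, 6.15 and 7.19 under ethylene. AT5MAT, which adds a malonyl group to them and stood among the 12 largest deficits, was at 3.6, 3.33 and 3.68 against 5.61, 6.20 and 6.69. Neither gene overlapped between the groups, and their differences were -2.62 ± 0.56 and -2.63 ± 0.43. Against control, shade was lower by 2.68 for DFR, 1.96 for UF3GT and 1.53 for AT5MAT, all called, while ethylene was higher by 0.77, 0.66 and 1.10, none called. At 25.5 h the same 3 genes differed more, by -5.62, -3.79 and -3.79, and at 1.5 h none of the 3 was called. The other measured members, BAN, an anthocyanidin reductase, and 3 glycosyltransferases of the UGT78D group, were not called, with -0.11 ± 0.16 for BAN. AT1G03940, a locus with a difference of -3.32 ± 0.45 on 1 feature, had 2 other features at -0.08 and 0.69, the latter called, so its direction depends on the feature.

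Ethylene-response genes formed the clearest group. Of the 30 ethylene-raised genes, 22 were lower in shade at 13.5 h, beside 1.92% of all genes, and none was called higher. Their median difference was -1.65 beside 0.01 for all genes. In 24 of the 30, every shade array lay below every ethylene array, against 9.32% of all genes. Without shade replicate 3 the count was again 22, and the median was -2.02. Of the 30 ethylene-lowered genes, listed in the same way, 12 were higher in shade and 1 was lower, beside 2.85% and 1.92% of all genes. Their median was 0.70, and without that array 14 were higher and 1 lower, with a median of 0.98.

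ARL, a small membrane protein gene of the ARGOS family that limits ethylene sensitivity and promotes organ growth, was at 7.17, 7.01 and 10.02 in shade and 10.52, 10.63 and 10.57 under ethylene. Shade replicate 3 came near the ethylene arrays while the other 2 lay far below. The difference was -2.51 ± 0.50 (adjusted p = 0.00107), and without that array -3.48 (adjusted p = 7.67e-07). AT5G57760 showed the same shape, at 5.03, 5.03 and 8.03 against 9.38, 9.30 and 9.19, a difference of -3.26 ± 0.65, or -4.26 without shade replicate 3. AT3G20395 was at 6.20, 6.52 and 8.82 against 10.49, 10.53 and 9.88.

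Of 5 measured genes of ethylene perception and signalling, 2 were lower in shade, ARL and RTE1, beside 1.92% of all genes. RTE1, a partner of the receptor ETR1, was at 7.46, 7.0 and 7.92 in shade and 8.15, 8.17 and 8.02 under ethylene (-0.66 ± 0.18, adjusted p = 0.0198). Its homologue RTH differed by -0.36 ± 0.18 and was not called. EIN3 itself was at 9.18, 9.15 and 8.95 against 9.30, 9.14 and 9.00, overlapping groups with a difference of -0.05 ± 0.12. The remaining ethylene-raised genes named by rank were chosen for a large deficit, which fixed their direction. AT5G42530 was lower in shade by 3.58 ± 0.39, AT4G11610 by 2.89 ± 0.35 and AT1G21326 by 2.67 ± 0.57. Of the 30 ethylene-raised genes 8 were not called, and 2 had a positive difference, AT3G53250 at 0.45 and AT2G26750 at 0.18.

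**Figure D3:**
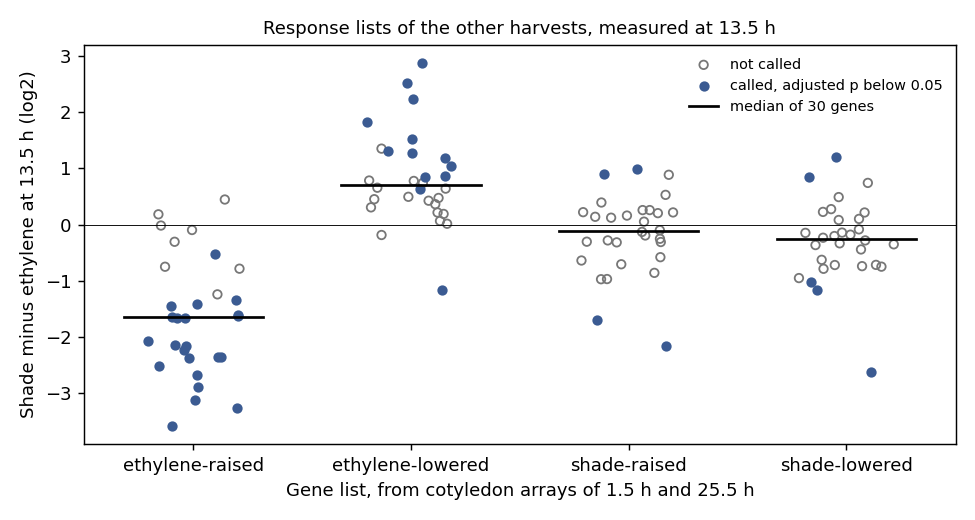
Shade minus ethylene in cotyledons at 13.5 h for 4 lists of 30 genes chosen from the 1.5 h and 25.5 h cotyledon arrays. Each point is a gene, filled where called, and bars are medians: -1.65, 0.70, -0.11 and -0.26 from left to right.

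Shade-response genes of the other harvests did not stand out in the same way. Of 30 shade-raised genes, 2 were higher and 2 lower than under ethylene, beside 2.85% and 1.92% of all genes, with a median of -0.11. Of 30 shade-lowered genes, 2 were higher and 3 lower, with a median of -0.26. The lists share some genes. AT5G62280, lower in shade by 2.15, was both shade-raised and ethylene-raised. Both lowered lists held AT1G24580 (-1.17, called), TBL26 (0.85, called), AT3G10185 and AT1G23205, the last 2 not called. Without shade replicate 3 the shade-raised list had 3 higher and 2 lower, with a median of -0.12. The shade-lowered list then had 3 higher and 4 lower, with a median of -0.24. AT3G15450, among the shade-raised genes, was at 9.73, 9.65 and 10.11 in shade and 10.85, 10.64 and 9.92 under ethylene. It overlapped and was not called (-0.64 ± 0.40), although the same difference was 2.21 at 1.5 h and 2.65 at 25.5 h. Of 5 measured genes of shade and light signalling, 1 was higher and 1 lower. PIF7, a factor freed by shade, was at 6.29, 6.16 and 4.79 against 5.12, 4.64 and 4.61 (0.95 ± 0.25, adjusted p = 0.0162). Shade replicate 3 lay among the ethylene arrays, and without it the difference was 1.43. HYH, a bZIP relative of the light-signalling factor HY5, was lower in shade, at 4.40, 4.50 and 4.84 against 5.68, 5.62 and 5.78 (-1.12 ± 0.15, adjusted p = 3.07e-06). FHL, a phytochrome A transport factor, and HAT2, a homeodomain factor that shade and auxin induce, differed by 0.15 and 0.38 and were not called. AFR, an F-box gene of far-red signalling singled out after its values were seen, was lower by 1.21 ± 0.19 on its brighter feature and differed by 0.09 on the other.

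Auxin and other hormone genes moved singly. Of 9 auxin response genes, 1 was higher and 1 lower, beside 2.85% and 1.92% of all genes. IAA20, a repressor of the Aux/IAA family and itself in the ethylene-raised list, was at 2.48, 2.68 and 4.68 in shade and 5.42, 5.52 and 5.99 under ethylene (-2.36 ± 0.50). Shade replicate 3 was again the highest of its group. GH3.17, which conjugates auxin to amino acids, was higher in shade by 0.81 ± 0.19, at 6.51 to 6.99 against 5.71 to 6.14. IAA29, a family member that shade induces, was at 3.76 to 3.84 against 3.18 to 3.54 and was not called (0.39 ± 0.26). ARR15, a type-A cytokinin response regulator, was higher in shade by 1.7 ± 0.41 (adjusted p = 0.00814), at 4.92, 5.77 and 4.11 against 2.90, 3.66 and 3.15. It was 1 of 3 cytokinin genes measured. COR47, a dehydrin of the abscisic acid and cold response and 1 of 4 such genes measured, was at 7.45, 7.33 and 6.21 against 5.10, 4.95 and 5.21 (1.91 ± 0.27, adjusted p = 3.2e-06).

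Genes of photosynthesis and of energy in darkness differed in a few members. Of 8 antenna and photosystem genes, 2 were higher in shade and 1 lower, beside 2.85% and 1.92% of all genes. LHB1B2, a major light-harvesting protein of photosystem II, was at 11.86, 11.64 and 11.56 in shade and 10.63, 10.46 and 10.29 under ethylene. Control stood with ethylene, at 10.77, 10.43 and 9.94, and the difference from ethylene was 1.23 ± 0.18 (adjusted p = 7.85e-06). LHCB4.2, of the minor antenna CP29, was higher by 0.99 ± 0.15, at 8.81 to 9.18 against 7.64 to 8.48. Its relative LHCB4.3 was lower by 0.79 ± 0.21, and without shade replicate 3 its adjusted p was 0.0536. The other 5 members were not called, and 7 of the 8 had a positive difference.

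ETFQO and ETFALPHA feed electrons from amino acid breakdown into mitochondrial respiration during darkness. Both were lower in shade, by 0.62 ± 0.14 and 0.63 ± 0.18, as 2 of 7 dark-induced genes measured, beside 1.92% of all genes. ETFALPHA was not called without shade replicate 3 (adjusted p = 0.116). Without that array 3 of the 7 were lower, and the list's median went from -0.37 to -0.54. The members gained were MCCB, a subunit of the carboxylase that acts in leucine breakdown, at -0.72 (-0.51 with the array, adjusted p = 0.0685), and D2HGDH, a hydroxyglutarate dehydrogenase, at -0.54 (-0.37 with it, adjusted p = 0.131). SWEET16, a vacuolar sugar transporter, was the only called gene of 14 in starch and sucrose metabolism, beside 4.77% of all genes. It was higher in shade by 1.11 ± 0.29. PPDK, pyruvate orthophosphate dikinase, and FDH, formate dehydrogenase, were singled out after their values were seen. PPDK was at 4.97, 4.91 and 6.47 in shade and 7.99, 7.83 and 7.53 under ethylene, lower by 2.33 ± 0.26. FDH was lower by 1.47 ± 0.29. AT3G10040, annotated as the hypoxia regulator HRA1, was at 2.15, 3.13 and 2.92 against 1.98, 1.93 and 2.07, near the bottom of the scale, and was higher in shade by 0.74 ± 0.16 as 1 of 2 hypoxia genes measured.

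No gene was called in 14 other lists: auxin synthesis and transport (5 measured), gibberellin (4), brassinosteroid (1), jasmonate and defence (6), chlorophyll synthesis (8), carbon fixation (4), the clock (1), cell cycle (8), stomatal lineage (4), shoot apex (8), cold and heat factors (1), nitrogen and sulphate uptake (1), cuticle (3) and glucosinolates (5). Their medians lay between -0.95 and 0.36, and 1 glucosinolate gene was called without shade replicate 3. With so few members measured, a list without a call says little of its pathway. Genes of ethylene synthesis, and vascular and epidermal markers, were not analysed here.

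Families of transporters and transcription factors, chosen after the values were seen, each had called members in only 1 direction. Of 13 NRT1/PTR family transporters, which carry nitrate and peptides, 4 were higher in shade and none lower. Of all genes, 2.85% were higher and 1.92% lower, which holds for each family here. AT1G33440, annotated as NPF4.4, was at 7.53, 7.61 and 7.56 against 6.05, 6.51 and 6.45 (1.23 ± 0.15, adjusted p = 2.33e-07). NAXT1, a nitrate exporter, was higher by 1.08 ± 0.20, AT1G72120 (NPF5.14) by 0.80 ± 0.22 and AT2G26690 (NPF6.2) by 0.72 ± 0.12. Of 23 genes with a bZIP number as symbol, which leaves out the bZIP gene HYH that was lower in shade, BZIP34 was higher by 1.89 ± 0.25, BZIP61 by 1.15 ± 0.21 and bZIP52 by 0.66 ± 0.18, and the last was not called without shade replicate 3 (adjusted p = 0.0567). BZIP34 stood at 7.99, 8.14 and 6.89 in shade and under ethylene at 5.75, 5.71 and 5.87. Of 7 methionine sulfoxide reductases, which repair oxidised proteins, MSRB6 was higher by 1.2 ± 0.20 and MSRB9 by 1.36 ± 0.39, the latter not without shade replicate 3. Of 7 WRKY factors, WRKY22, known from defence signalling, was lower by 1.01 ± 0.24. Chosen after the values were seen as well were tny, an AP2/ERF factor, higher by 1.63 ± 0.24, CHX16, a cation exchanger, higher by 1.61 ± 0.22, NGA2 by 1.2 ± 0.26, TCP15 by 1.02 ± 0.18 and EXO, a brassinosteroid-responsive wall gene, lower by 1.39 ± 0.38. Called members of the other families looked at, beside 4.77% of all genes, were 2 of 16 CLE peptides, 2 of 5 jacalin-related lectins, 6 of 55 UDP-glycosyltransferases, 1 of 24 cytochromes P450, 3 of 32 serine carboxypeptidase-like genes, 3 of 8 aldehyde dehydrogenases, 3 of 17 mitochondrial nad genes and none of 63 organelle-encoded genes.

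Genes without an annotated name filled most of the extremes, 10 of the 12 largest excesses and 9 of the 12 largest deficits. AT3G46490 was at 8.64, 8.35 and 7.78 in shade and 5.83, 5.33 and 4.57 under ethylene (3.01 ± 0.34, 8.07-fold), with control at 7.31 to 7.91. AT1G78230 differed by 2.89 ± 0.31, AT1G06360 by 2.88 ± 0.46, AT2G30930 by 2.67 ± 0.24, AT1G76620 by 2.53 ± 0.26 and AT1G30250 by 2.5 ± 0.29. The control arrays lay above every ethylene array for these 6 genes. AT4G19380, AT1G52750 and AT4G28780 followed at 2.41, 2.39 and 2.21. AT5G44440 differed from these: at 7.86, 7.69 and 8.02 in shade, 5.15, 5.47 and 6.42 under ethylene and 2.6, 3.4 and 5.57 in control, it was lowest without treatment (2.18 ± 0.52).

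AT2G04050 had the largest deficit of all. It was at 1.49, 1.53 and 2.22 in shade, near the lowest values of the array, and at 6.27, 5.26 and 5.70 under ethylene, a difference of -4.0 ± 0.35 (adjusted p = 8.76e-11). Control lay between at 4.86, 2.94 and 4.90. AT2G18193 was at 1.92, 1.83 and 2.17 in shade, 5.07, 4.50 and 4.54 under ethylene and 1.93 to 2.45 in control, a difference of -2.73 ± 0.19 (adjusted p = 1.57e-13). AT2G34020 was at 3.53, 4.09 and 6.53 against 7.19 to 7.55 (-2.69 ± 0.61). All 24 genes were called without shade replicate 3, the 12 higher and the 12 lower alike. AT1G03940 is among the 12 lower through 1 feature, and its other features did not share that deficit, as given above.

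Beside the other comparisons, which use other arrays, the night difference of the cotyledon was partly shared. Shaded and ethylene-treated hypocotyls at 13.5 h differed in 2468 genes (14.7%). Of these, 430 were called in the same direction in both organs, 53.9% of the cotyledon's 798 and 17.4% of the hypocotyl's, and 21 in opposite directions. In the cotyledon at 1.5 h, 366 genes differed (2.19%) and 120 were shared, 15.0% of the 798 and 32.8% of the 366. At 25.5 h, 2070 differed (12.4%) and 342 were shared, 42.9% and 16.5%. Of the 24 largest genes, 10 of the higher and 10 of the lower were called the same way in hypocotyl, 6 and 4 at 1.5 h and 9 and 11 at 25.5 h.

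The tests of the differences themselves called 772 genes between organs (4.61%), 154 between 13.5 h and 1.5 h (0.92%) and 567 between 13.5 h and 25.5 h (3.39%). Without shade replicate 3 they called 595, 180 and 521. EXPA8 was called in cotyledon and not in hypocotyl, at 2.84 against 0.17, a difference between organs of 2.68 ± 0.34 (adjusted p = 8.39e-07). AT4G28780 was higher in shade in both organs and more so in hypocotyl, by 5.22. AT2G18193 was not called at 1.5 h, at 25.5 h or in hypocotyl, with differences of 0.24, 0.18 and 0.07, and all 3 tests of the change were called. XTH19, AT5G19890, AT1G49570 and UPB1, a factor that controls peroxidases, were lower in shaded hypocotyls by 4.24 to 4.76 and differed by -0.56 to 0.23 in cotyledon. AT4G11210 had the opposite pattern, 5.45 in hypocotyl and 0.97 in cotyledon.

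**Figure D4:**
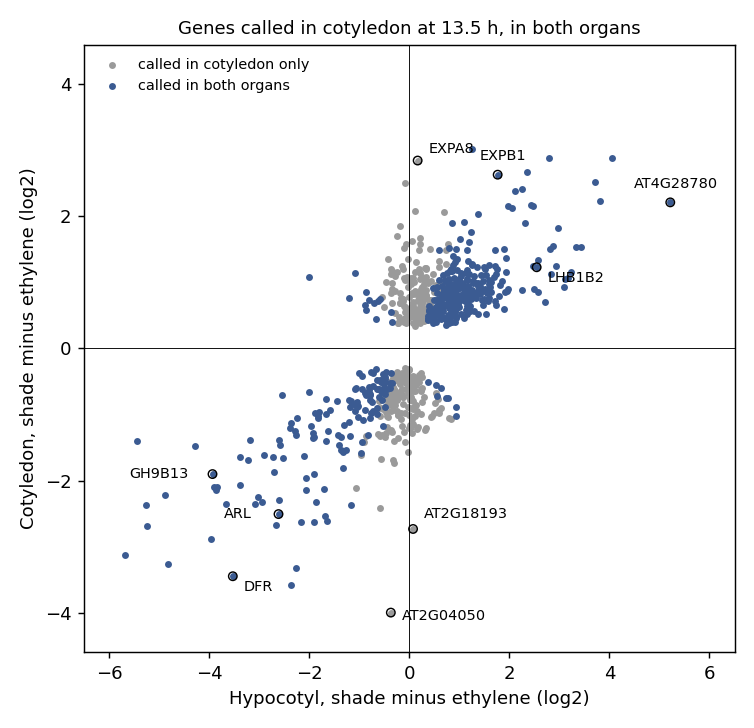
Shade minus ethylene (log2) in cotyledon against hypocotyl at 13.5 h for the 798 genes called in cotyledon, in colour where also called in hypocotyl. EXPA8, AT2G18193 and AT2G04050 lie near 0 on the hypocotyl axis, while AT4G28780 reaches 5.22 there.

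Over the 3 harvests, the expansins and LHB1B2 differed most between treatments at night. EXPB1 differed by 0.57 at 1.5 h, 2.63 at 13.5 h and 0.41 at 25.5 h, and LHB1B2 by -0.02, 1.23 and 0.22, with both changes called for both genes. In shade LHB1B2 averaged 11.97 ± 0.13, 11.69 ± 0.16 and 12.47 ± 0.08 (SD, n = 3), and under ethylene 11.99 ± 0.15, 10.46 ± 0.17 and 12.24 ± 0.13. Under ethylene its night level lay below both other harvests by more than the spread of replicates. In shade it lay below 25.5 h by more than that spread, and nearer to 1.5 h. ARL differed by -2.56, -2.51 and -2.76, which is less variation over the harvests than its standard error of 0.50, and neither change was called.

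**Figure D5:**
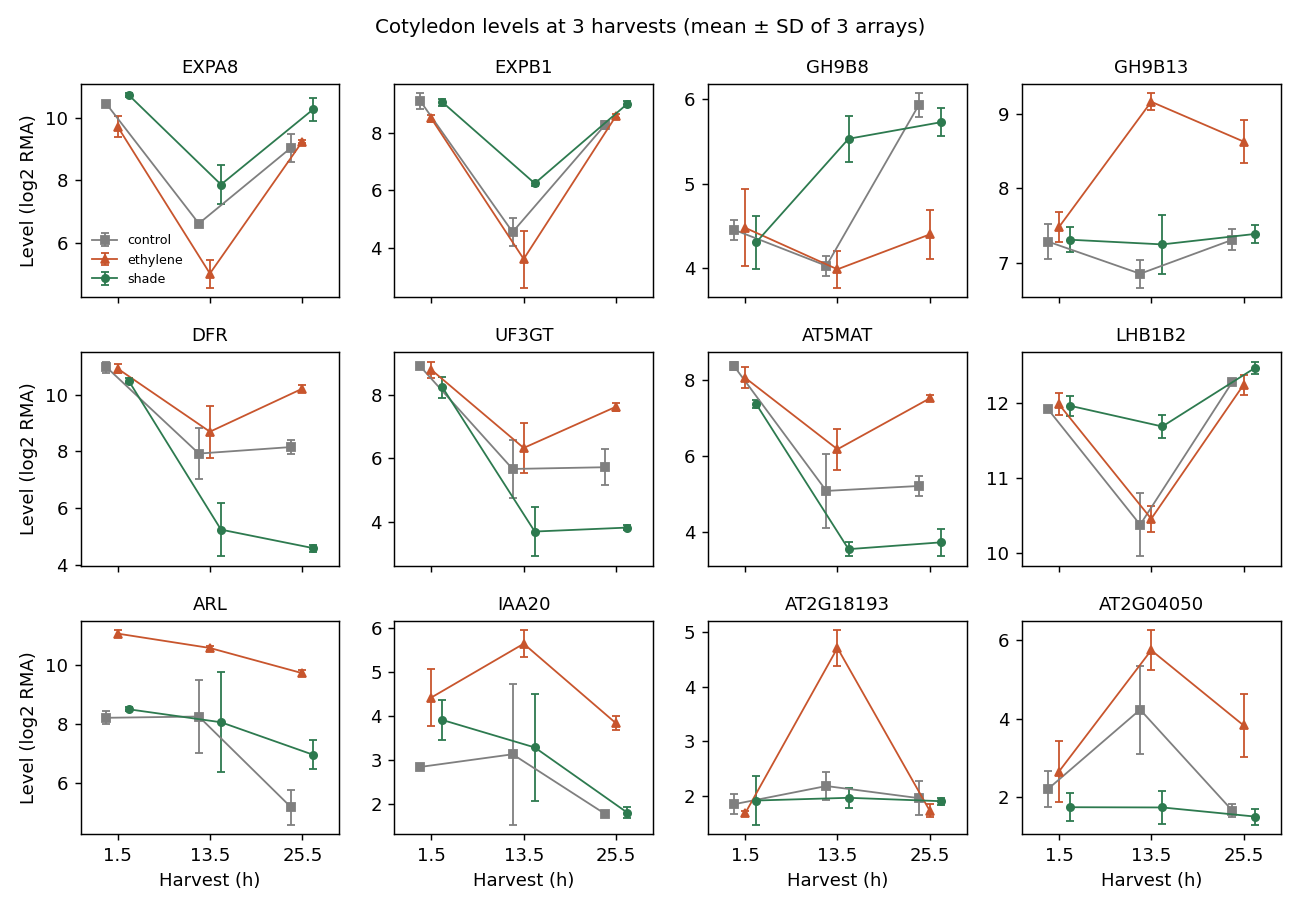
Mean log2 level with SD of 3 cotyledon arrays at each harvest for 12 genes, under control (squares), ethylene (triangles) and shade (circles). At 13.5 h EXPA8, EXPB1 and LHB1B2 are highest in shade, DFR, UF3GT and AT5MAT are lowest in shade at 13.5 h and 25.5 h, and AT2G18193 is raised only under ethylene at 13.5 h.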

How the data were processed

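RNA from 54 samples was hybridised to Affymetrix Arabidopsis Gene 1.1 ST arrays. The deposited values are log2 levels after RMA for 38408 features, and the submitters' processing notes name Affymetrix Expression Console 1.4 and Transcriptome Analysis Console 3.0. The genome build is not given in the sources used here. Of the features, 16746 had exactly 1 gene in the platform annotation, 758 several and 20904 none, and 16601 matched TAIR10.1 by gene ID. No value was renormalised. Samples were grouped by their labels, and limma 3.58.1 in R 4.3.3 fitted 18 group means over 54 arrays (lmFit, eBayes), with contrasts for shade minus ethylene and for its change between organs and harvests. Precision is set by how few arrays there are. In data simulated for this comparison over 17504 features, 20% of genes changed by 0.5 were called. Of those changed by 1 and by 2, 74% and 100% were called, with 5 false calls. Whether these rates carry over to the real arrays, with the uneven replicates described above, was not tested. The labels do not say that replicates were grown apart in every respect, so p-values measure only the spread between these samples. That spread is pooled within the 18 groups of all 54 arrays and is not that of the 6 compared arrays alone.

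The genes named are the 12 largest called differences each way without overlap between the groups, all called members of the gene lists, 10 treatment check genes, and the 5 largest of each change between organs or harvests. The members and lists were chosen with earlier results of these data known. Alternatives were a filter on dim features, quantile normalization, centring on reference genes, a replicate block, all features, trended and robust eBayes, array weights, fewer arrays, a minimum fold and leaving out each array.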

Additional observations from a re-analysis of the deposited data

Results flagged for a closer look

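The difference between shade and ethylene was itself tested for a change between organs and between harvests, over all genes, with limma and Benjamini-Hochberg adjustment. It differed between cotyledon and hypocotyl for 772 genes, between 13.5 h and 1.5 h for 154 and between 13.5 h and 25.5 h for 567. The values that follow are those of the genes named here whose change was called, 74 values for 49 genes with adjusted p-values up to 0.0491. A positive value means that shade minus ethylene was higher in cotyledon, or higher at 13.5 h. Without the 4 control and shade arrays numbered 3 at 13.5 h, 1 of the 74 values was not called, that of AT2G26690 against 25.5 h.

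Between organs, the positive changes were 4.56 for XTH19, 4.33 for AT5G19890, 4.2 for AT1G49570, 4.18 for UPB1, 2.68 for EXPA8 and 2.59 for AT1G30250. Smaller positive ones were 2.03 for GH9B13, 1.95 for ARR15, 1.84 for XTH33, 1.76 for AT3G46490, 1.58 for HAT2 and 1.46 for IQD19. Then came 1.4 for IQD18, 1.36 for RTE1, 1.19 for TRM28, 1.03 for BZIP61 and 0.85 for AT2G26690. The negative changes were -0.58 for TRM19, -1.32 for LHB1B2, -1.8 for GH9B8, -2.81 for AT2G18193, -3.0 for AT4G28780 and -3.63 for AT2G04050. Others were -4.48 for AT4G11210.

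Against 1.5 h, the positive changes were 2.7 for AT2G36970, 2.62 for AT1G78230, 2.61 for AT3G46490, 2.06 for EXPB1, 1.83 for EXPA8 and 1.73 for AT4G19380. Smaller positive ones were 1.71 for GH9B8, 1.64 for AT1G52750, 1.52 for AT2G30930, 1.26 for MSRB6, 1.25 for LHB1B2 and 0.81 for AT1G33440. Then came 0.74 for AT2G26690. The negative changes were -0.89 for ETFQO, -1.53 for XTH33, -1.56 for WRKY22, -2.51 for AT1G02610, -2.52 for AT3G45730 and -2.63 for AT1G03940. Others were -2.85 for AT3G15450, -2.97 for AT2G18193, -3.09 for AT2G04050 and -3.45 for AT2G34020. The value of AT1G03940 rests on 1 of its features.

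Against 25.5 h, the positive changes were 3.46 for BGLU28, 2.22 for EXPB1, 2.02 for AT1G72120, 1.81 for EXPA8, 1.67 for AT1G78230 and 1.61 for AT1G76620. Smaller positive ones were 1.51 for AT2G36970, 1.42 for AT4G28780, 1.29 for MSRB6, 1.14 for AT3G10040, 1.12 for TRM28 and 1.05 for TBL26. Then came 1.01 for LHB1B2, 0.86 for LHCB4.2 and 0.60 for AT2G26690. The negative changes were -0.73 for TRM19, -0.77 for ETFQO, -1.16 for MCCB, -1.57 for IAA29, -1.68 for AT2G04050 and -1.86 for FHL. Others were -1.92 for WRKY22, -2.91 for AT2G18193, -3.24 for AT1G02660, -3.28 for AT3G15450, -4.02 for AT1G02610 and -4.27 for AT3G45730.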

How the results depend on the processing

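Of the 24 genes with the largest differences, 22 to 24 were called under every alternative fit over all arrays or all cotyledon arrays, 2 being untested without the dimmest 25% of features, 20 with the 6 compared arrays alone, 16 when a replicate block was added to those, and 23 to 24 with any 1 array left out. The count of 798 fell to 182 with the 6 arrays alone, 45 with the replicate block there and 260 with a minimum of 1 on the log2 scale, and the 21 called list members fell to 7 and 4. With the replicate block on all arrays the count was 889, with 21 list members and 24 named genes. Same-numbered ethylene and shade arrays correlated at 0.053, 0.012 and 0.037 in their deviations, so the numbers were not taken to pair these groups. Over all pairs of groups the same-number correlations ran from -0.195 to 0.286, all 3 being over 0.1 for hypocotyl control and shade at 13.5 h. Array weights gave 1193 calls. The median difference of all genes was -0.00329 without those dimmest features, -0.171 with centring on reference genes, -0.00434 with array weights and -0.0112 without the 4 arrays numbered 3, an alternative chosen after seeing the data. The 154 genes that changed against 1.5 h became 339 with array weights and 235 without those 4 arrays. Leaving out 1 array at a time gave 512 (shade replicate 1) to 788 calls, with 523 without shade replicate 2 and 526 without ethylene replicate 2, medians of -0.0112 to 0.0175, 13 (shade replicate 2) to 22 list members, 519 to 916 genes between organs, 96 (shade replicate 3 of 1.5 h) to 180 against 1.5 h, 422 to 548 against 25.5 h, 418 to 606 for shade minus control and 132 to 308 for ethylene minus control, the lowest of both without control replicate 2. Directions reversed only for genes that were not called: FHL at -0.0309 with reference centring and -0.0104 without shade replicate 1, EIN3 at 0.0190 without shade replicate 3 or the 4 arrays and 0.0253 without ethylene replicate 1, AT4G27450 at -0.0562 without shade replicate 3 or the 4 arrays, UPB1 at 0.0359 without shade replicate 2 and 0.0771 without ethylene replicate 2, and STZ at 0.228 without ethylene replicate 3. Over all arrays left out singly these ranged from -0.124 to 0.0253 for EIN3, from -0.0104 to 0.271 for FHL, from -0.0562 to 0.46 for AT4G27450, from -0.129 to 0.0771 for UPB1 and from -1.60 to 0.228 for STZ. The cause of these changes was not tested. Signals near 2 lie at the dim end of the array, where levels have little order.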

Other observations

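Some genes were high in shade replicate 3 alone. GH9B15 was at 9.70 there and between 1.81 and 3.55 in the 8 other cotyledon arrays of 13.5 h, and its difference from ethylene of 2.21 became -0.34 without that array. It was not called in either fit (adjusted p = 0.378 and 0.943 with limma).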
